A study of Mus musculus with 8 samples.

Results

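The genes described here belong to the route of newly made proteins into and out of the endoplasmic reticulum (ER): the signal recognition particle and its receptor, the Sec61 channel, the translocon-associated (TRAP) complex, signal peptidase, the COPII vesicle coat and the Sec22 family. Each row was picked by its symbol, not by measured values, but the set was chosen with earlier results of these data known. The rows are those whose names start with Sec11, Sec13, Sec16, Sec22, Sec23, Sec24, Sec31, Sec61, Sec62, Sec63, Srpr, Sar1 or Srp and a number, or equal Ssr1 to Ssr4 or Spcs1 to Spcs3. This gave 42 of the 23366 genes in the table. RNA was measured in 8 libraries labelled as beta cells of NOD mice aged 8 to 10 weeks. This inbred strain becomes diabetic through autoimmunity. The labels call the sorted populations bottom and top without saying what distinguishes them, and each had 4 libraries, 2 in batch 1 (bottom 1 and 2, top 1 and 2) and 2 in batch 2 (bottom 3 and 4, top 3 and 4). Each library was amplified from about 1000 cells, and no label states whether the libraries of a population come from different mice. The p-values therefore measure only the spread between libraries, which may be technical.

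A secretory protein such as insulin begins with a signal sequence. The signal recognition particle binds it as it leaves the ribosome and brings the ribosome to its receptor on the ER, where the chain passes through the Sec61 channel and signal peptidase removes the signal sequence, which turns preproinsulin into proinsulin. Folded cargo leaves the ER at exit sites, where the small GTPase Sar1 recruits the inner coat of Sec23 and Sec24 and then the outer coat of Sec13 and Sec31, and the vesicles carry it towards the Golgi.

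Totals were 7256042 to 11262368 estimated counts per bottom library and 6657639 to 9366913 per top library. Levels are in CPM, estimated counts divided by the TMM-scaled library size, a scaling that sets most genes level between libraries. Several sets of cell type markers did not overlap between the populations. Summed beta cell markers (10 genes, with Mafa at 0 counts in all 8 libraries) stood at 38729 to 81375 CPM in bottom and 344012 to 505634 CPM in top. Delta cell markers stood at 33437 to 57805 CPM in bottom and 2655 to 5305 CPM in top, and alpha cell markers at 29095 to 142098 CPM in bottom and 65185 to 138169 CPM in top, which overlap. PP cell markers (Ppy and Pyy) stood at 11342 to 91991 CPM in bottom and 1196 to 2356 CPM in top, and acinar markers (Prss1 and Ptf1a at 0 throughout) at 389 to 2245 CPM in bottom and 58.9 to 384 CPM in top. Markers of intestinal epithelium reached 29802 and 7006 CPM in bottom 1 and bottom 2, against 44.9 and 14.5 CPM in bottom 3 and bottom 4 and 52.8 to 1882 CPM in top. The summed level of fibroblast and stellate cell markers was 3.28, 180, 191 and 769 CPM across bottom 1 to 4 and 0.251 to 12.4 CPM in top. The part of these markers in the results below was not tested. In bulk RNA, fewer cells of a type and less RNA per cell cannot be told apart.

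No gene of the translocation and export machinery passed the test between the populations, while most of them stood slightly lower in bottom. Of the 41 members with enough counts to be tested, 0 were called higher and 0 lower in bottom (edgeR quasi-likelihood test, adjusted p under 0.05), where the share of all 11721 tested genes called was 0.282% higher and 0.162% lower. DESeq2 and limma-trend also called 0 members. Of all 11721 tested genes, DESeq2 called 368 higher and 221 lower, and limma-trend 78 higher and 59 lower. At an unadjusted p under 0.05 edgeR had 4 members lower and 0 higher, against 4.63% lower and 5.62% higher of all tested genes. The smallest adjusted p of a member was 0.272, for Srprb. Yet 37 of the 41 had a log2 fold change below 0, against 49.9% of all tested genes, and the median was -0.42, against 0.0033 over all tested genes and -0.014 over the 7363 genes at or above the level of the lowest tested member.

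**Figure D1:**
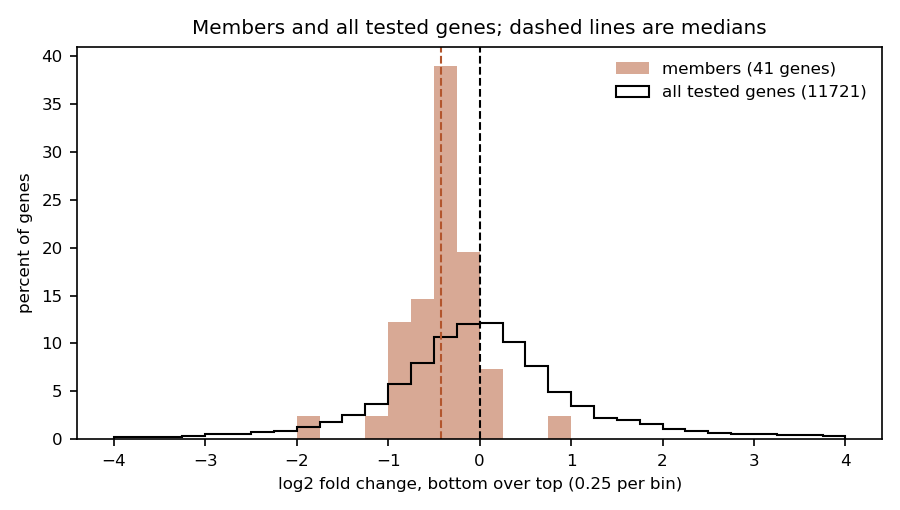
Distribution of the log2 fold change, bottom over top, for the 41 tested members (filled) and all 11721 tested genes (black outline), as percent of genes per bin of 0.25. Most members lie in a narrow band around their median of -0.42, while all tested genes spread more widely around 0.0033; 226 tested genes lie beyond the axis limit of 4 in either direction.

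The difference is small, and its sign for single genes depended on the scaling. With library totals and no scaling factor, 25 of the 41 members had a negative value and the members' median was -0.084, while the median of all tested genes moved to 0.34. With hormone genes left out of the library sizes, 39 were negative with a median of -0.56, and the median of all tested genes was -0.14. With DESeq2 size factors 36 were negative. The members' median less that of all tested genes was -0.42 in the main fit and under each of these scalings. In each, 37 of the 41 members lay below the median of all tested genes. A scaling moves nearly all genes together, so these alternatives show how far the zero line depends on it and do not test the members against other genes. Within batch 1 alone the members' median was -0.42 and within batch 2 alone -0.41.

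Summed over the 42 genes, the machinery stood at 5782, 6651, 5885 and 6194 CPM across bottom 1 to 4, against 7812, 8008, 8404 and 7458 CPM across top 1 to 4. The populations did not overlap, and the bottom mean was 77.4% of the top mean, 78.6% in batch 1 and 76.2% in batch 2. As a share of all counts before scaling, the members took 0.683% ± 0.101 in bottom and 0.704% ± 0.0219 in top (SD, n = 4), and these shares overlapped. As a share of counts other than those of the hormone genes Ins1, Ins2, Iapp, Gcg, Sst, Ppy and Pyy, they took 0.897% ± 0.121 in bottom and 1.27% ± 0.0343 in top (SD, n = 4), which did not overlap.

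Hormone RNA encodes the main cargo of this machinery in islet cells. The 7 hormone genes summed to 221634 ± 101719 CPM in bottom and 504163 ± 49178 CPM in top (SD, n = 4), so that the bottom mean was 44.0% of the top mean, beside 77.4% for the summed machinery. Ins1 and Ins2 gave 13.05% to 33.4% of hormone CPM in bottom and 63.4% to 83.0% in top. For every 1000 CPM of all 7 hormone genes, bottom 1 to 4 held 26.8, 18.2, 44.6 and 35.6 CPM of the machinery, and top 1 to 4 held 15.2, 14.1, 17.4 and 16.5 CPM. The populations did not overlap in this ratio, and its bottom mean was 198% of its top mean. Hormone CPM itself did not overlap, at 131945 to 365399 in bottom and 452733 to 567353 in top. Genes at an equal level in all libraries would therefore also have a higher ratio in bottom. No such ratio was made for other genes, so its direction is not a trait of the machinery. With insulin alone as the denominator, which leaves out most of the hormone RNA of bottom, the ratio was 95.7 to 206 CPM in bottom and 17.0 to 27.5 CPM in top.

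**Figure D2:**
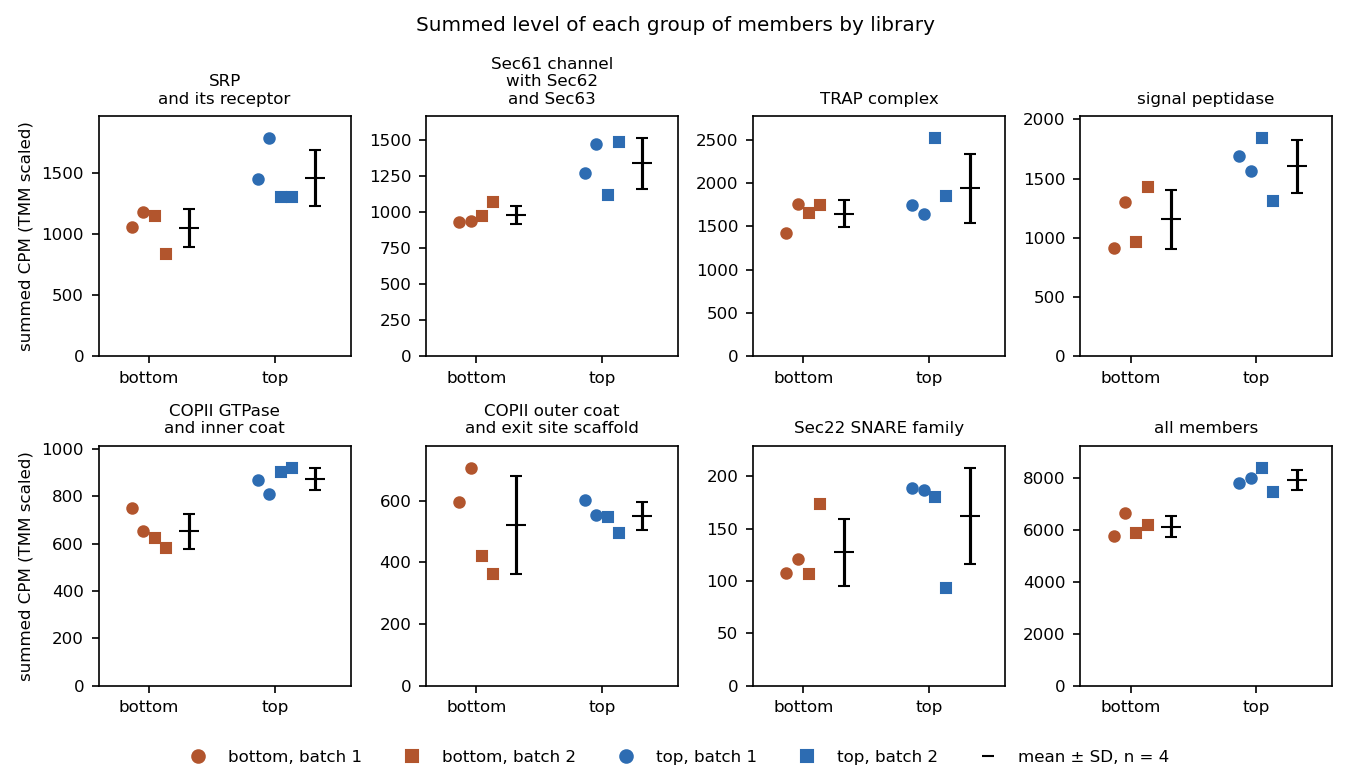
Summed CPM of each group of members and of all members, by library, with bottom on the left and top on the right of each panel; circles are batch 1, squares batch 2, and bars the mean ± SD of 4 libraries. The sums of the signal recognition particle, the Sec61 channel, the COPII inner coat and all members do not overlap between the populations, and the other 4 groups do.

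The signal recognition particle and its receptor had 10 tested genes, 9 with negative values and a median log2 fold change of -0.44. Srprb encodes the membrane-anchored beta subunit of the receptor. It stood at 29.2, 50.8, 24.2 and 26.8 CPM across bottom 1 to 4, against 83.6, 65.0, 73.7 and 59.1 CPM across top 1 to 4. Every bottom library lay below every top library, as for 3 of the 41 members and 3.91% of all tested genes. Every bottom library lay above every top library for 0 of the 41 members and 3.31% of all tested genes. For Srprb the log2 fold change was -1.14 (SE 0.35, n = 4, 95% interval -1.93 to -0.34, edgeR adjusted p = 0.272, and 0.0689 to 0.854 over all alternatives). Srpr, the alpha subunit that docks the particle, stood at 170 to 275 CPM in bottom and 171 to 326 CPM in top, with a log2 fold change of -0.30 (95% interval -0.85 to 0.24).

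Srp72 encodes a protein of the particle that binds its RNA together with Srp68. It stood at 129, 236, 152 and 85.7 CPM across bottom 1 to 4, against 251, 297, 169 and 229 CPM across top 1 to 4. Bottom was lower within each batch, although bottom 2 exceeded top 3 and top 4 (log2 fold change -0.66, SE 0.30, edgeR adjusted p = 0.492). Srp14, which with Srp9 forms the part that slows translation, stood at 183, 270, 178 and 223 CPM in bottom, against 241, 323, 364 and 231 CPM in top, and the populations overlapped (-0.44, SE 0.26, edgeR adjusted p = 0.649).

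The particle's GTPase, which binds the signal sequence, is spread over 3 near-identical gene copies, Srp54a, Srp54b and Srp54c, between which RSEM divides shared reads, so their separate levels are uncertain. Srp54c stood at 71.9, 76.9, 236 and 95.1 CPM in bottom, against 196, 246, 209 and 151 CPM in top. Bottom 3 alone among the bottom libraries reached the top range (log2 fold change -0.84, SE 0.41, edgeR adjusted p = 0.537). The sum of the 3 copies was 102, 173, 296 and 155 CPM in bottom, against 269, 335, 320 and 291 CPM in top, again with only bottom 3 in the top range.

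All 6 genes of the Sec61 channel and its partners Sec62 and Sec63 had negative values, with a median of -0.46. Sec61b, the beta subunit of the channel, stood at 163, 194, 150 and 160 CPM across bottom 1 to 4, against 206, 382, 228 and 265 CPM across top 1 to 4. The populations did not overlap, by a margin of bottom 2 below top 1 that is small beside the spread in top (log2 fold change -0.69, SE 0.26, n = 4, 95% interval -1.27 to -0.11, edgeR adjusted p = 0.373, and 0.261 to 1.0 over all alternatives). Sec61g, the gamma subunit, stood at 257, 317, 369 and 428 CPM in bottom, against 405, 473, 353 and 609 CPM in top, and overlapped (-0.44, SE 0.25, edgeR adjusted p = 0.621). Sec61a1, the subunit that forms the pore, stood at 249, 184, 105 and 139 CPM in bottom, against 219, 232, 272 and 177 CPM in top, with bottom 1 above 3 of the top libraries (-0.47, SE 0.29, edgeR adjusted p = 0.666). Sec61a2, the second pore-forming gene, overlapped between the populations, and Sec61a1 gave 76.1% to 97.9% of the counts of the pair in bottom and 93.9% to 96.1% in top.

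The TRAP complex, which assists translocation of chains with weak signal sequences, had a summed bottom mean of 84.9% of the top mean. Its 4 genes had log2 fold changes of -0.10 for Ssr1, -0.27 for Ssr2, -0.38 for Ssr3 and -0.19 for Ssr4, and each 95% interval lay within a 2-fold change in either direction. Ssr4 stood at 422, 530, 608 and 548 CPM across bottom 1 to 4, against 555, 571, 538 and 731 CPM across top 1 to 4. Its interval ran from 0.636-fold to 1.21-fold (edgeR adjusted p = 0.854). In all, 13 of the 41 members had an interval within 2-fold, against 7.68% of all tested genes, so for the other 28 members these libraries leave a 2-fold difference possible.

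Signal peptidase is built on the catalytic subunits Sec11a and Sec11c with the accessory subunits Spcs1 to Spcs3, and all 5 genes had negative values with a median of -0.41. Sec11c stood at 86.8, 66.7, 95.2 and 96.6 CPM across bottom 1 to 4, against 129, 166, 117 and 137 CPM across top 1 to 4. The populations did not overlap (log2 fold change -0.67, SE 0.27, n = 4, 95% interval -1.29 to -0.06, edgeR adjusted p = 0.423). Its paralogue Sec11a stood at 143, 228, 158 and 147 CPM in bottom, against 190, 193, 171 and 188 CPM in top (-0.14, 95% interval -0.69 to 0.41). Sec11a therefore made up 62.3%, 77.4%, 62.4% and 60.4% of the counts of the pair in bottom, against 59.5%, 53.7%, 59.4% and 57.8% in top. Of the 8 paralogue pairs compared in this way, this was the only one whose shares did not overlap. The margin was small, with bottom 4 at 60.4% and top 1 at 59.5%. No test was made of it, and the share of other gene pairs without overlap was not computed.

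Spcs3, which signal peptidase needs for activity in yeast, stood at 133, 250, 192 and 522 CPM in bottom, against 568, 379, 629 and 333 CPM in top. Bottom 4 lay inside the top range and the other bottom libraries below it (log2 fold change -0.87, SE 0.41, edgeR adjusted p = 0.520). Spcs1, the smallest-error gene of the group, stood at 244, 334, 318 and 400 CPM in bottom, against 404, 401, 479 and 373 CPM in top, and only bottom 4 reached the top range (-0.36, SE 0.23, edgeR adjusted p = 0.668).

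**Figure D3:**
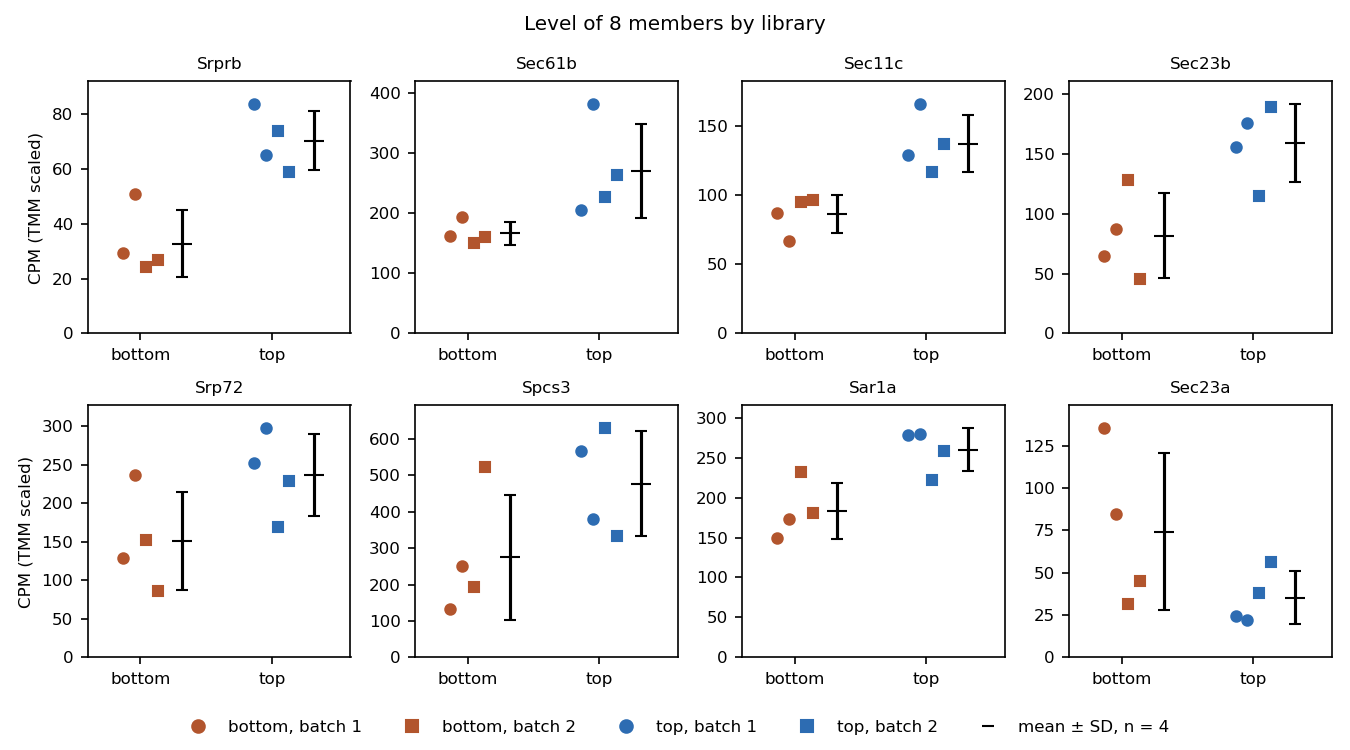
CPM of 8 members by library, with bottom on the left and top on the right of each panel; circles are batch 1, squares batch 2, and bars the mean ± SD of 4 libraries. Srprb, Sec61b and Sec11c do not overlap between the populations, Spcs3 is split by bottom 4 at 522 CPM, and Sec23a is high in bottom 1 and bottom 2.

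In the COPII GTPase and inner coat, 7 of 8 genes had negative values and 1, Sec23a, a positive one, and the median was -0.46. Sec23b, 1 of the 2 Sec23 proteins that drive GTP hydrolysis by Sar1, stood at 65.0, 87.4, 128 and 45.4 CPM across bottom 1 to 4, against 156, 176, 115 and 189 CPM across top 1 to 4. Bottom 3 exceeded top 3, and otherwise every bottom library was lower (log2 fold change -0.97, SE 0.37, n = 4, 95% interval -1.79 to -0.14, edgeR adjusted p = 0.382). Its paralogue Sec23a stood at 135, 84.6, 31.6 and 45.3 CPM in bottom, against 24.6, 22.3, 38.2 and 56.0 CPM in top. Bottom 1 and bottom 2 were above every top library and bottom 3 and bottom 4 were within the top range (0.97, SE 0.58, 95% interval -0.33 to 2.26, edgeR adjusted p = 0.652).

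The bottom mean of Sec23a was 468% of the top mean in batch 1 and 81.6% in batch 2. A test of whether the population difference depended on the batch gave a raw p of 0.00744 and an adjusted p of 0.500 (edgeR). After adjustment 0 of all tested genes passed it, and at an unadjusted p under 0.05 Sec23a was the 1 member of 41, against 7.55% of all tested genes. Bottom 1 and bottom 2 are also the libraries with 29802 and 7006 CPM of intestinal markers. PP cell markers split the same way, at 77084 and 91991 CPM there against 11342 and 22081 CPM in bottom 3 and bottom 4. Bottom 1 and bottom 2 are all the bottom libraries of batch 1, so within bottom these markers and the batch cannot be told apart. Without bottom 1 and bottom 2 the log2 fold change of Sec23a was -0.29, a value that rests on batch 2 alone. The part of intestinal or PP cells in the Sec23a level was not tested. Sec23a made up 67.5%, 49.2%, 19.8% and 49.9% of the counts of the Sec23 pair in bottom, against 13.6%, 11.3%, 24.9% and 22.9% in top, so that bottom 3 alone of the bottom libraries lay in the top range.

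Sar1a, a GTPase that starts coat assembly, stood at 149, 173, 232 and 180 CPM across bottom 1 to 4, against 278, 280, 222 and 258 CPM across top 1 to 4. Only bottom 3 reached the lowest top library (log2 fold change -0.51, SE 0.24, edgeR adjusted p = 0.520). Sec24 proteins select cargo. Sec24b stood at 14.1, 14.4, 23.6 and 58.0 CPM in bottom, against 30.9, 27.1, 110 and 38.3 CPM in top, where top 3 stood apart (-0.94, SE 0.47, edgeR adjusted p = 0.554). The other Sec24 genes had log2 fold changes of -0.10 for Sec24a, -0.44 for Sec24c and -0.48 for Sec24d, and each 95% interval included 0.

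**Figure D4:**
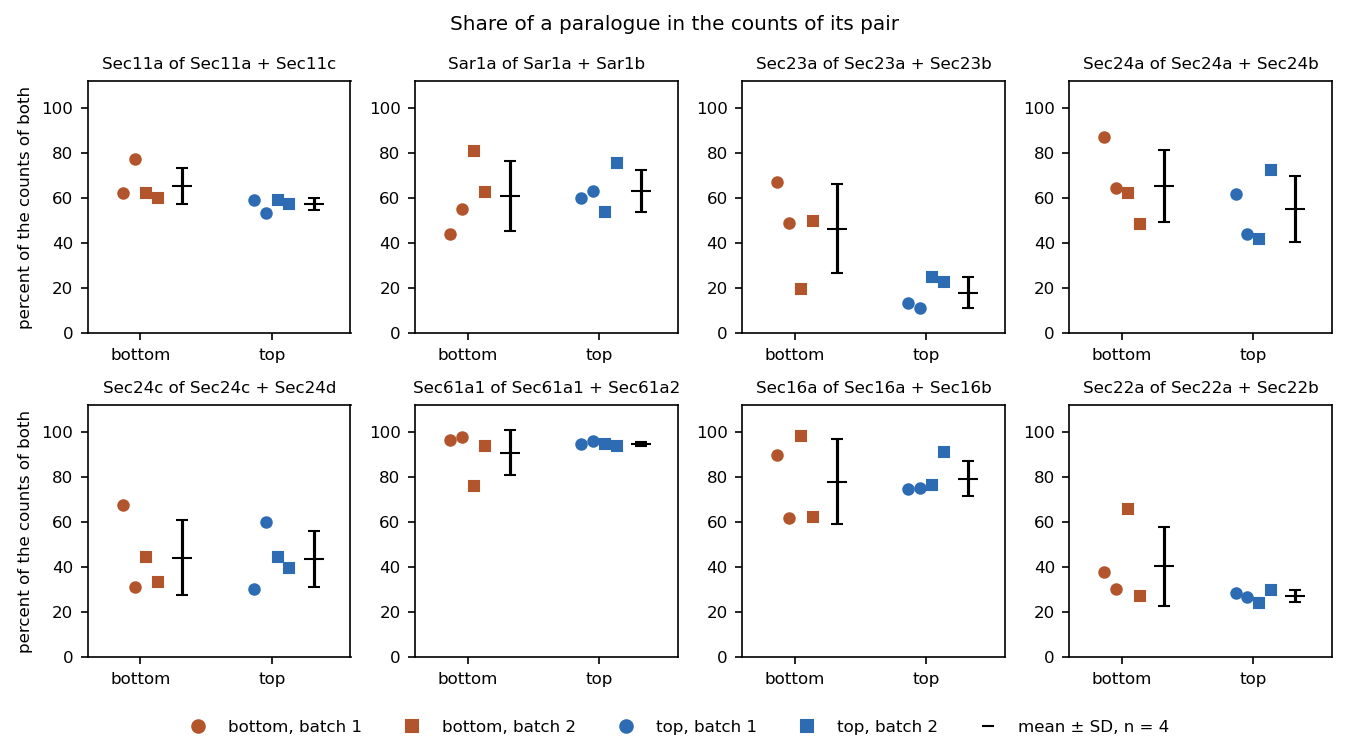
Share of 1 paralogue in the counts of its pair, in percent, by library, with bottom on the left and top on the right of each panel; circles are batch 1, squares batch 2, and bars the mean ± SD of 4 libraries. The Sec11a share is 60.4% to 77.4% in bottom and 53.7% to 59.5% in top, and the Sec23a share is 49.2% to 67.5% in 3 bottom libraries and 11.3% to 24.9% in top.

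The COPII outer coat and the exit site scaffold had a summed bottom mean of 94.7% of the top mean, which joins 112% in batch 1 and 75.0% in batch 2, with a median log2 fold change of -0.22 over 5 tested genes. Sec31a, a rod of the outer coat, stood at 178, 291, 95.3 and 146 CPM across bottom 1 to 4, against 285, 180, 130 and 202 CPM across top 1 to 4, and the ranges overlapped fully (log2 fold change -0.22, SE 0.31, 95% interval -0.92 to 0.47, edgeR adjusted p = 0.890). Sec13, its partner, stood at 217, 233, 63.7 and 95.8 CPM in bottom, against 174, 140, 164 and 101 CPM in top. The bottom mean of Sec13 was 143% of the top mean in batch 1 and 60.3% in batch 2 (interaction, edgeR adjusted p = 0.679). Neither batch had overlap, but each held only 2 libraries of a population. The paralogue Sec31b had 4 counts in bottom, all in bottom 3, and 0 in top, and was too low to test. The Sec22 family, of which Sec22b is a SNARE that helps COPII vesicles fuse, had a median of -0.52 over 3 genes. Sec22b stood at 57.0, 77.2, 34.3 and 120 CPM in bottom, against 128, 127, 112 and 54.1 CPM in top, with overlap (-0.52, SE 0.45, edgeR adjusted p = 0.789).

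**Figure D5:**
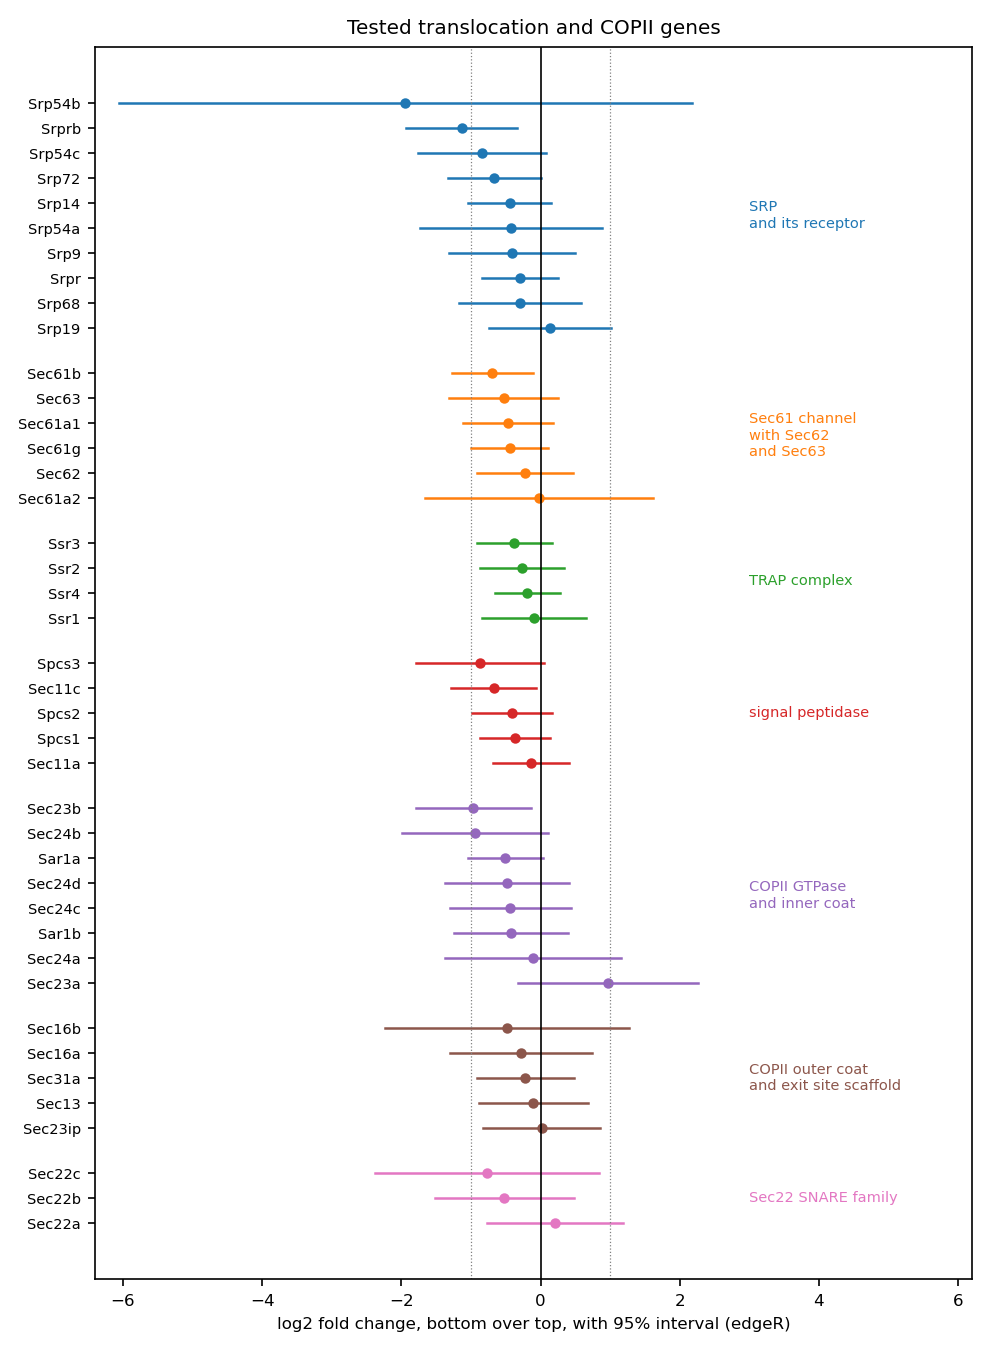
Log2 fold change, bottom over top, of the 41 tested members with its 95% interval from edgeR, grouped by role; the dotted lines mark a 2-fold difference in either direction. The points of 37 members lie left of 0, and the widest interval is that of Srp54b, from -6.06 to 2.17.

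The members varied less between libraries than tested genes at large, which were not matched to them in level. Their median coefficient of variation was 37.3% over the bottom libraries and 26.3% over the top libraries, against 63.9% in bottom and 50.1% in top for all tested genes. The lowest value in bottom was 10.8%, for Ssr1, and the highest 139%, for Srp54b.

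Other genes of the same route lay closer to all tested genes. Of 104 tested genes in 6 lists of neighbouring functions, edgeR called 0 higher and 0 lower, against 0.282% and 0.162% of all tested genes. At an unadjusted p under 0.05 (edgeR) there were 3 higher and 8 lower, against 5.62% higher and 4.63% lower of all tested genes. Of the 104, 69 had negative values, or 66.3%, against 49.9% of all tested genes, and the median was -0.20. The oligosaccharyltransferase, which adds sugars to chains in the channel, had 10 of 11 genes negative with a median of -0.36. This was near the members, with 37 of 41 and -0.42. The regulators of ER capacity had 6 of 8 (-0.36). The ER to Golgi tethers and SNAREs had 14 of 22 negative (-0.21), the COPI coat and KDEL receptors 11 of 16 (-0.17), the cargo receptors and exit site partners 17 of 28 (-0.14) and the TRAM, EMC and GET insertion genes 11 of 19 (-0.12).

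Lman1 and Uso1, with the smallest p lower in bottom, and Tmed6, with the smallest p higher in bottom, are named after the values of these lists were seen. Lman1 encodes a lectin that carries glycoproteins into COPII vesicles. It stood at 149, 132, 76.6 and 107 CPM across bottom 1 to 4, against 342, 237, 214 and 238 CPM across top 1 to 4. No bottom library reached the top range (-1.17 on the log2 scale, SE 0.25, edgeR adjusted p = 0.100, DESeq2 adjusted p = 0.00758, and 0.00758 to 0.755 over all alternatives). Uso1, a tether of ER vesicles at the Golgi, stood at 141, 98.99, 80.9 and 116 CPM in bottom, against 247, 227, 229 and 181 CPM in top, also without overlap (-1.02, SE 0.26, edgeR adjusted p = 0.165, DESeq2 adjusted p = 0.0372, and 0.0372 to 0.847 over all alternatives). Tmed6, of the p24 family of cargo receptors, stood at 48.5, 52.2, 54.7 and 46.5 CPM in bottom, against 6.33, 13.4, 0.989 and 25.7 CPM in top. Every bottom library lay above every top library (2.13, SE 0.80, edgeR adjusted p = 0.373, and 0.0649 to 0.758 over all alternatives).

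Promoters of the members were read for elements of the unfolded protein response, the stress programme in which XBP1 and ATF6 raise genes of the ER. RefSeq promoters of GRCm38.p6, from 250 bases before to 50 after each start, matched 37 of the 42 members. On both strands, 0 of the 37 held the ERSE element (CCAAT and CCACG with 9 bases between them), found in 0.137% of all 27025 genes of the table, and 0 held ERSE-II (ATTGG and CCACG with 1 base between them), found in 0.0444%. The UPRE core TGACGTGG was in 3 of the 37, all COPII genes, and in 0.714% of all genes. In Sec23a it lay 6 to 13 bases after the start. In Sec16b (chr1:157506732-157506779, plus strand) and Sec24d (chr3:123267450-123267495, plus strand) it lay before the start, and these stretches are shown, with the core in capitals, since they are the 2 members with an upstream match.
Sec16b: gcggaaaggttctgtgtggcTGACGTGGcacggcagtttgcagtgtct
Sec24d: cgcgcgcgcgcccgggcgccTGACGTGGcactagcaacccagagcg
Sec16b, an exit site scaffold protein, stood at 14.2, 47.3, 1.58 and 16.8 CPM in bottom, against 21.9, 40.9, 23.7 and 11.3 CPM in top (log2 fold change -0.48, SE 0.78, edgeR adjusted p = 0.904). Sec24d stood at 33.6, 87.5, 63.8 and 59.3 CPM in bottom, against 98.8, 48.7, 81.1 and 116 CPM in top (-0.48, SE 0.40, edgeR adjusted p = 0.783). Both genes overlapped between the populations, and a match of letters is a description, not a bound site.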

How the data were processed

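The authors deposited RSEM expected counts, estimated reads per gene in which reads that match several genes are divided among them; per the submitters' processing notes the tools were RSEM and edgeR and the build mm9. Their versions, the aligner and the annotation are not given in the sources used here. Between the deposited tables of single libraries and of the series, no value differed (largest difference 0). Expected counts (34.8% not whole) were rounded. Genes were filtered by filterByExpr, scaled by TMM and tested, bottom over top with batch as a covariate, by the quasi-likelihood test of edgeR 4.0.16 (R 4.3.3), with Benjamini-Hochberg adjustment over all 11721 tested genes and calls at an adjusted p under 0.05. The standard error was taken from the F statistic, and intervals are at 95% without adjustment. Alternatives used DESeq2 1.42.0 and limma 3.58.1, other scalings, no filter, no batch term, a replicate block, single batches and omission of libraries. No 2 libraries of a population agreed within sampling noise (chi-square per degree of freedom at least 41.0). Named genes were the 14 members with the smallest p, the member with the highest mean level in each of the 7 role groups, and any called gene, 17 members in all; other members given with values were added after their values were seen. Members and lists were chosen with earlier results of these data known. Counts of different genes depend on transcript length, and the tests between the populations were made within a gene. The sums, the ratios to hormone RNA, the paralogue shares and the choice of the highest member combine counts of different genes. They were not corrected for transcript length. Without strand information, overlapping antisense genes could not be separated.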

Additional observations from a re-analysis of the deposited data

Results flagged for a closer look

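In 10 of the 84 sets of 4 libraries (42 genes in bottom and in top), 1 library stood apart from the other 3 by Dixon's ratio of gap to range. For normally distributed values chance gives about 1 in 20. The share of all tested genes flagged in this way was not computed, so the count is not a trait of the members. Sec31b, at 0 counts in every top library, could not be flagged there. In bottom, bottom 3 was high for Sec23ip, at 165 CPM against 57.9 to 74.6 CPM in the others, for Srp54c, at 236 CPM against 71.9 to 95.1 CPM, and for Sec31b, at 0.421 CPM (4 counts) against 0 in the others. In top, top 3 was high for Sec23ip, at 150 CPM against 57.8 to 69.3 CPM, for Sec24b, at 110 CPM against 27.1 to 38.3 CPM, for Srp54a, at 78.8 CPM against 70.6 to 71.8 CPM, and for Ssr1, at 988 CPM against 328 to 390 CPM. Top 3 was low for Sec62, at 127 CPM against 182 to 186 CPM. Top 2 was high for Srp19, at 194 CPM against 84.6 to 97.2 CPM, and top 4 for Ssr4, at 731 CPM against 538 to 571 CPM.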

How the results depend on the processing

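No member was called in any of the 19 alternatives (smallest adjusted p 0.0689, Srprb in DESeq2), and 21 of the 41 members kept their sign in all of them. Members with a negative value numbered 34 to 38 over the omissions of 1 library, with a median of -0.46 to -0.36. That median was -0.56 with library sizes without hormone genes and -0.084 with library totals and no scaling factor, 1 of 2 alternatives chosen after seeing the data. Over all tested genes, edgeR called 33 higher and 19 lower, 3 to 36 and 5 to 24 over the omissions, 136 and 68 without a filter, 18 higher without the batch term, 19 higher without bottom 1 and bottom 2 (also chosen after seeing the data), and 55 higher with library totals. DESeq2 called 368 and 221, and limma-trend 78 and 59. Batch 1 alone gave 2 and 0 (750 and 610 at an unadjusted p under 0.05), and batch 2 alone 2 and 0 (852 and 379). The replicate block, made of the batch and the number in the library title, gave 0 and 0 (369 and 341). In it only libraries numbered 1 compare the populations. Their deviations from a fit of batch and population correlated at -0.205 in batch 1 and -0.258 in batch 2. Such a fit by itself makes the deviations of these libraries correlate negatively. The values therefore do not decide whether the numbers pair libraries.

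Signs that turned were these log2 fold changes, and the cause was not tested. With DESeq2 size factors and in the DESeq2 test, Sec61a2 was 0.032 and 0.033. Without hormone genes Sec23ip was -0.12 and Srp19 -0.024, and without a filter Sec23ip was -0.017. Without the batch term Sec13 was 0.076 and Sec61a2 0.20. Under the replicate block Sec16a was 0.62, Sec24c 0.17, Sec61a2 0.36, Srp54b 0.63 and Srpr 0.031. In batch 1 alone Sec13 was 0.49, Sec16a 0.092, Sec22a -0.53, Sec22c 0.11, Sec23ip -0.15, Sec24a 0.72, Srp54b 0.19 and Ssr1 0.36. In batch 2 alone Sec23a was -0.28, Sec61a2 0.67, Sec62 0.14 and Srp9 0.11, and without bottom 1 and bottom 2 they were -0.29, 0.65, 0.12 and 0.10. With library totals Sec11a was 0.19, Sec13 0.23, Sec16a 0.066, Sec24a 0.22, Sec31a 0.091, Sec61a2 0.33, Sec62 0.098, Srp68 0.041, Srpr 0.031, Ssr1 0.25, Ssr2 0.066 and Ssr4 0.14. Over the omissions Sec13 ran from -0.33 to 0.15, Sec16a from -0.59 to 0.042, Sec22a from -0.082 to 0.41, Sec23ip from -0.30 to 0.24, Sec24a from -0.76 to 0.19, Sec61a2 from -0.65 to 0.33, Srp19 from -0.17 to 0.42 and Ssr1 from -0.25 to 0.31.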
